A study of Mus musculus with 4 samples.

Results

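Claudins are membrane proteins that join neighbouring epithelial cells at the tight junction and set which ions pass between the cells. The claudins of 10 genes, Cldn1, Cldn2, Cldn3, Cldn4, Cldn7, Cldn8, Cldn10, Cldn14, Cldn16 and Cldn19, were followed in mouse kidney after bile duct ligation (BDL), which ties off the bile duct and causes cholestasis, or after a sham operation. Every non-control probe whose RefSeq accession belongs to one of these genes was taken. This gave 10 of the 20656 genes named on the array and 12 of the 55668 probes analysed, 2 each for Cldn2 and Cldn4 and 1 for each of the other 8 genes. All 12 probes were well above background on all 4 arrays, so all passed the filter on dim probes, which left 32280 probes in the fit across the array.

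The study compared total RNA from kidneys taken 2 weeks after either operation, with 2 biological replicates per group on 1-colour arrays and 1 sample per array. The sham mice, which had the operation without the ligation, are the control group. Strain, age and sex were not given in the sources used here, and the sham and BDL groups differ by the operation alone in the labels.

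Different segments of the nephron carry different claudins. Claudin-2 forms a pore for cations and water in the leaky proximal tubule, while claudin-10 occurs there as an anion-selective form and in the thick ascending limb as a cation-selective form. In the thick ascending limb, claudin-16 and claudin-19 work together in the passage of calcium and magnesium between the cells, and claudin-14, which is controlled by the calcium-sensing receptor, blocks it. Claudin-3, claudin-4, claudin-7 and claudin-8 belong to the tighter distal nephron and collecting duct, and claudin-1 is a barrier claudin of the epithelium that lines Bowman's capsule. In whole kidney RNA, fewer cells of a type and less RNA per cell cannot be told apart.

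Upstream sequences are shown for Cldn10, Cldn3 and Cldn7, the members for which the arrays of the 2 groups did not overlap on any probe. They are the 250 bases before a RefSeq start in GRCm38.p6, written 5′ to 3′ on the strand of the gene. The RefSeq table matched 9 of the 10 members, without Cldn8. Capitals mark matches on either strand to a GC box (GGGCGG), an E-box of the kind bound by Snail repressors (CAGGTG), an element of the HNF1 type (GTTAAT) or a TATA box (TATAAA). No matches of different motifs overlapped in the sequences shown. Cldn10 has 2 starts, 67.1 kb apart, and its probe lies under 1 accession, so the array value is not assigned to either start. Cldn7 also has 2 starts, 0.642 kb apart, and its array value is likewise not assigned to either. For Cldn7 only start 1 is printed here.
Cldn10, start 1 (chr14:118787621-118787870, + strand): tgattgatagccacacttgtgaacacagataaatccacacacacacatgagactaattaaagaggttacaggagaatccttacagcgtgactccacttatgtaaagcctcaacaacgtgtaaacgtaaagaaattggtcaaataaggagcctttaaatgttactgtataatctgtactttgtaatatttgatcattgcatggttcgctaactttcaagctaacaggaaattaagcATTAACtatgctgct
Cldn10, start 2 (chr14:118854700-118854949, + strand): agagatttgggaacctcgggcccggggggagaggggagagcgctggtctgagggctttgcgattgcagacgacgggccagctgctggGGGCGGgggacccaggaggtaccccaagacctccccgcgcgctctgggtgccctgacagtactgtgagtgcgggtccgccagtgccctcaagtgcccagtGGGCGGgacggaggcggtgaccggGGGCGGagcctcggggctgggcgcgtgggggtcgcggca
Cldn3 (chr5:134985964-134986213, + strand): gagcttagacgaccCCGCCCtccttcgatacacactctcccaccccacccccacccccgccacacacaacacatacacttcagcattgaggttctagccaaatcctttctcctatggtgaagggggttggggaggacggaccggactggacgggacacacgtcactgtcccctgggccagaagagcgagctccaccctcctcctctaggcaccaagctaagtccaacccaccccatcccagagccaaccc
Cldn7, start 1 (chr11:69964529-69964778, + strand): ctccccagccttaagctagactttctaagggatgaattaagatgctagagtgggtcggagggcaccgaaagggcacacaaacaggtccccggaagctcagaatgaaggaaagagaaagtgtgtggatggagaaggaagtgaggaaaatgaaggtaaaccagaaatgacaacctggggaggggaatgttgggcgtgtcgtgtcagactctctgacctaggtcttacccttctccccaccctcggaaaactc

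The 2 starts of Cldn10 differed in composition, with 36.0% G and C at start 1 and 72.4% at start 2. The window at start 1 held 1 HNF1-type element, found in 6.44% of all 32817 windows of this length, and start 2 held 3 GC boxes, where 32.7% of windows held at least 1. Cldn3 held 1 GC box. The window of Cldn7 start 1 held none of these letters, and that of its start 2 held 1 GC box and 2 E-boxes, where 17.2% of windows held at least 1 E-box. The TATA box, found in 12.4% of windows, occurred among the members only in that of Cldn2. These are matches of letters only.

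The arrays resembled each other closely, with Pearson's r between 0.973 and 0.985 across the probes in the fit, which are not independent replicates. The highest r was between the groups, for sham replicate 2 with BDL replicate 2, while it was 0.978 within sham and 0.983 within BDL. Of the kidney markers, all 12 of the proximal tubule and all 7 of podocytes were measured, as were 7 of 7 hepatocyte markers, so a marker being measured does not set the kidney apart. Some arrays stood apart in other cell types. In BDL replicate 1 the urothelial markers lay 4.12 above the mean of the other 3 arrays (median over 9 markers, log2) and in BDL replicate 2 their deviation from the mean of the others was -3.61. The interferon response list lay 2.18 above in sham replicate 1, and all 7 of its measured genes were lower in BDL without overlap (median -1.56, 0 past the threshold). Of all probes in the fit, 18.5% were lower without overlap. The summed level of the interferon response list was 23.3 and 7.59 in sham, 4.67 and 3.92 in BDL. The erythroid list had 5 of 5 measured genes higher in BDL (median 1.63), with a summed level of 668 and 531 in sham and 1210 and 760 in BDL, and the leukocyte list had 6 of 7 lower (median -0.45), with 67.7 and 59.9 in sham and 60.6 and 54.0 in BDL. The thin limb markers deviated from their mean over the arrays by 1.55 in sham replicate 2, 0.30 in BDL replicate 2, -0.31 in sham replicate 1 and -1.54 in BDL replicate 1. These lists thus differed between arrays of 1 group or between the groups, and their part in the claudin values was not tested.

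Each value below is the log2 of a signal after division by the 75th percentile signal of its array, and a difference is BDL minus sham. With limma, 0 of the 12 member probes passed an adjusted p of 0.05, as did 0% of all probes. At an unadjusted p under 0.05 stood 1 member probe, that of Cldn10, and 5.65% of all probes (1823), of which 2.71% of all probes were higher and 2.94% lower in BDL. Groups did not overlap on 4 member probes, 2 higher and 2 lower in BDL, where 36.7% of all probes did not overlap, 18.2% higher and 18.5% lower. The members' share is thus near that of all probes. Taking each gene by its probe with the highest mean, 4 members were higher and 6 lower in BDL, with a median of -0.05 beside -0.00034 for all probes. Without sham replicate 2 the members' median was 0.10.

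**Figure D1:**
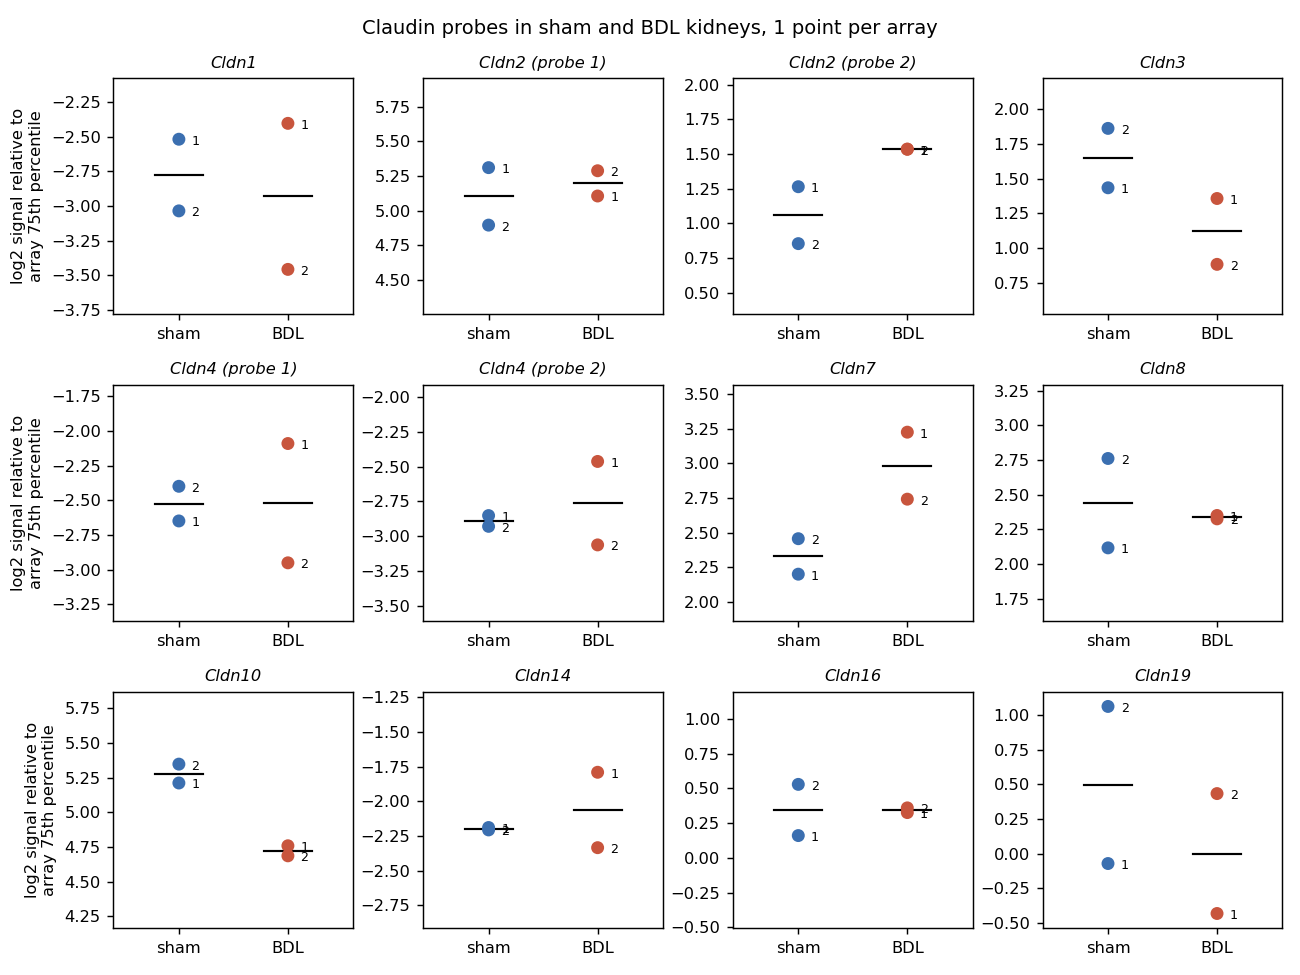
The log2 signal relative to the array's 75th percentile (vertical axis) is shown for the 12 claudin probes in sham and BDL kidneys, with 1 point per array numbered by replicate, a line at each group mean (n = 2) and the same axis length in every panel. Cldn10 and Cldn3 lie lower and Cldn7 lies higher on both BDL arrays than on both sham arrays, while most other members overlap.

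Among the claudins of the proximal tubule, the Cldn10 probe stood lower on both BDL arrays and the Cldn2 probes gave differing pictures. Cldn10, the claudin of anion and cation pores, was 5.21 and 5.35 in the sham kidneys, against 4.76 and 4.69 in the BDL kidneys. The arrays of each group lay close together, and the gap between the groups was wider than the spread within either. Group means were 5.28 ± 0.10 in sham and 4.72 ± 0.05 in BDL kidneys (SD, n = 2), a 1.47-fold lower level in BDL. The difference was -0.56 (SE 0.20, 95% interval from -1.07 to -0.04, limma adjusted p = 0.867). With each array left out in turn it was lowest, at -0.62, without sham replicate 1 and highest, at -0.49, without sham replicate 2. Leaving out an array could not turn its sign, because the groups did not overlap. Of all probes, 15.0% differed by at least as much and 4.52% had a smaller p.

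Cldn2, the cation and water pore, was read by probe A_52_P251450 at 5.31 and 4.90 in the sham kidneys, against 5.11 and 5.29 in the BDL kidneys. These values interleave, with the highest and the lowest both in sham, and the difference was 0.09 (SE 0.24, 95% interval from -0.54 to 0.73, adjusted p = 0.957). It was -0.11 without sham replicate 2. The other probe of Cldn2, A_66_P122511, was 1.26 and 0.85 in the sham kidneys and 1.53 in each BDL kidney. Here both BDL arrays were above both sham arrays, by 0.48 (SE 0.23, 95% interval from -0.14 to 1.09, adjusted p = 0.867), a 1.39-fold higher level, which was 0.27 on the log2 scale without sham replicate 2. Both probes lie under the same accession, put sham replicate 2 lowest and moved apart by at most 0.28 on any array once each was centred on its own mean. Their groups overlapped on the first and not on the second.

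The proximal tubule markers as a whole were even between the groups, with 6 of 12 higher and 6 lower in BDL, 0 past the threshold and a median of -0.01. Their summed level was 2435 and 2056 in the sham kidneys, against 2176 and 2098 in the BDL kidneys, in multiples of the 75th percentile signal. Relative to the mean of this list, Cldn2 (A_52_P251450) differed by 0.04. Slc5a12, a lactate transporter of the proximal tubule, differed by 0.75 (SE 0.20, adjusted p = 0.828) and Cubn, the cubilin gene of protein uptake, by 0.38 (SE 0.20), both without overlap. Within each array the log ratio of Cldn2 to Cldn10, a pair chosen after its values were seen, was higher on both BDL arrays than on both sham arrays, by 0.65. As deviations from its own mean it was -0.05 and -0.60 in sham and 0.20 and 0.45 in BDL.

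Cldn14, Cldn16 and Cldn19, claudins of the thick ascending limb, gave no difference that stood out from the spread between arrays. Cldn16, which encodes a partner in calcium and magnesium passage, was 0.16 and 0.53 in the sham kidneys, against 0.33 and 0.36 in the BDL kidneys. The BDL values lay between the sham values, and the difference was -0.0019 (SE 0.23, adjusted p = 0.999), and its 95% interval of -0.60 to 0.59 reaches 1.51-fold in either direction. Its sign depended on the setting, since it turned to 0.02 with the percentile taken over probes above background on all arrays, to 0.04 with normexp and to 0.0080 in the authors' deposited table, and, on leaving out 1 array, to 0.18 (sham replicate 2 left out) or 0.015 (BDL replicate 1 left out). Cldn16 had the narrowest range over the 4 arrays of all 12 probes, 0.37, while the median range of all probes was 0.59.

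Cldn19, the partner of claudin-16, had the widest range of the member probes, 1.49. It was -0.07 and 1.06 in the sham kidneys, against -0.43 and 0.43 in the BDL kidneys, so that within each group the arrays were further apart than the group means. The difference was -0.49 (SE 0.51, 95% interval from -1.83 to 0.84, adjusted p = 0.900), and 0.07 without sham replicate 2. Cldn19 put the arrays in the same order as the thin limb markers, from sham replicate 2 over BDL replicate 2 and sham replicate 1 to BDL replicate 1. All 5 thin limb markers were lower in BDL by their group means, with a summed level of 179 and 259 in sham and 121 and 172 in BDL. Most of that sum came from Aqp1, at 7.19 and 7.07 in sham and 6.58 and 6.89 in BDL on the log2 scale. Slc14a2, the urea transporter of the inner medulla, ran from 3.81 in sham replicate 2 to -3.14 in BDL replicate 1.

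Cldn14, the blocking claudin of the thick ascending limb, was -2.19 and -2.21 in the sham kidneys, against -1.79 and -2.33 in the BDL kidneys. The sham arrays were nearly equal and lay between the BDL arrays. The difference was 0.14 (SE 0.26, 95% interval from -0.55 to 0.82, adjusted p = 0.940), and -0.14 without BDL replicate 1. Casr, the calcium-sensing receptor gene, was 1.46 and 2.20 in the sham kidneys, against 1.97 and 2.20 in the BDL kidneys, a difference of 0.25 (SE 0.32). Vdr, the vitamin D receptor gene, differed by -0.45 (SE 0.37) with overlap.

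The markers of the thick ascending limb were not uniform either. Of 10 measured, 3 were higher and 7 lower in BDL, 0 passed the threshold and the median was -0.11. Their summed level was 497 and 777 in the sham kidneys, against 675 and 509 in the BDL kidneys, so that the higher sham array exceeded both BDL arrays and the lower one was below both. Slc12a1, the sodium, potassium and chloride cotransporter gene, was 3.80 in sham replicate 2 and between 2.18 and 2.33 on the other 3 arrays. Egf, the epidermal growth factor gene, differed by -0.32 (SE 0.22) without overlap. Relative to the mean of this list, Cldn10 differed by -0.45, Cldn19 by -0.39, Cldn14 by 0.24 and Cldn16 by 0.10. The log ratio of Cldn10 to Cldn16 within an array was lower on both BDL arrays (difference -0.55), with deviations of 0.39 and 0.16 in sham and -0.22 and -0.33 in BDL. That pair too was chosen after its values were seen. The log ratios of Cldn16 to Cldn19 and of Cldn14 to Cldn16 overlapped between the groups, with differences of 0.49 and 0.14.

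**Figure D2:**
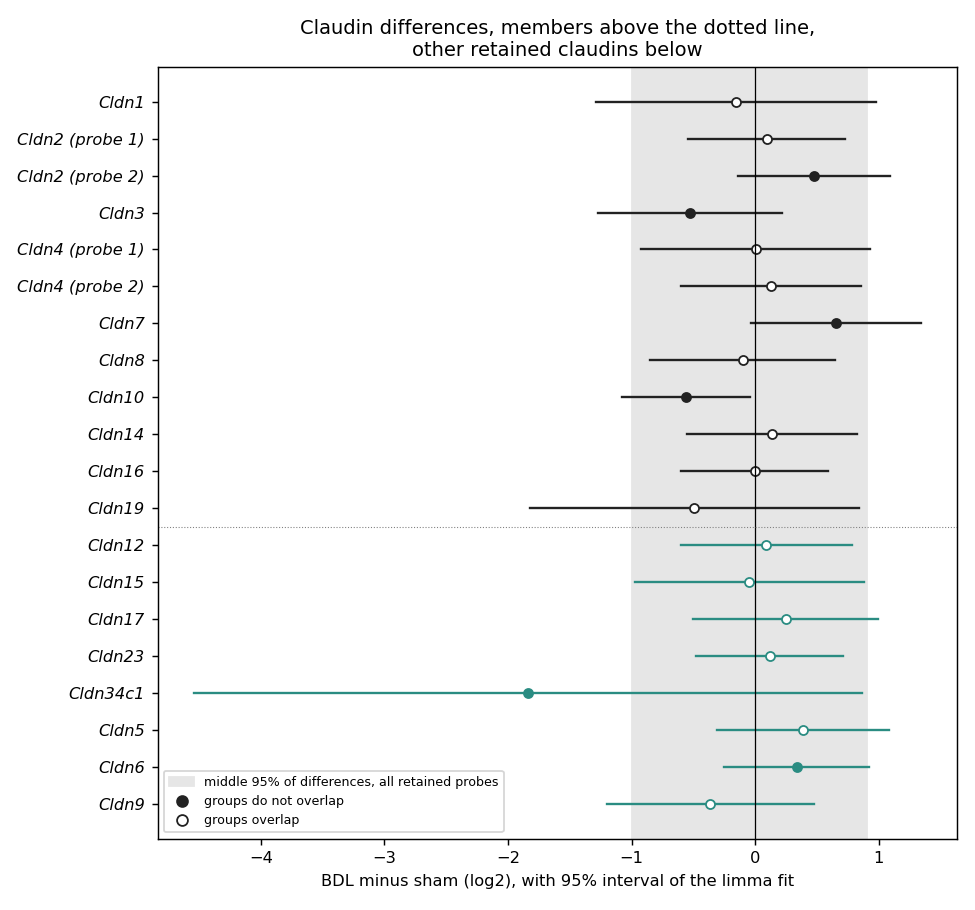
The BDL minus sham difference (horizontal axis, log2) is shown with its 95% interval for the 12 member probes and for the 8 other claudins retained in the fit, over a grey band with the middle 95% of differences of all probes. All 12 member differences lie within the band, and the interval of Cldn10, from -1.07 to -0.04, is the one among the member probes that leaves out 0.

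In the distal nephron and collecting duct, Cldn7 stood higher and Cldn3 lower on both BDL arrays. Cldn7, a claudin that also sits along the basolateral membrane, was 2.20 and 2.46 in the sham kidneys, against 3.22 and 2.74 in the BDL kidneys. All BDL values were above the sham values, with BDL replicate 1 the highest. The means were 2.33 ± 0.18 in sham and 2.98 ± 0.34 in BDL (SD, n = 2), a 1.57-fold higher level and the largest absolute difference among the member probes. The difference was 0.65 (SE 0.26, 95% interval from -0.03 to 1.34, adjusted p = 0.867). It was 0.41 without BDL replicate 1, the array with high urothelial markers, and 0.90 without BDL replicate 2. Of all probes, 11.2% differed by at least as much.

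Epcam, whose product binds claudin-7, was -0.54 and 1.49 in sham and 0.62 and 0.71 in BDL kidneys. Its BDL values lay between the sham values, with a difference of 0.19 (SE 0.69). All 8 intercalated cell markers were higher in BDL by their group means, with a median of 0.51 and 0 past the threshold, and their summed level was 68.2 and 96.6 in sham and 105 and 110 in BDL.

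Cldn3, a sealing claudin, was 1.43 and 1.86 in the sham kidneys, against 1.36 and 0.88 in the BDL kidneys. The groups did not overlap, but sham replicate 1 and BDL replicate 1 lay closer to each other than either did to its own replicate. The means were 1.65 ± 0.30 in sham and 1.12 ± 0.34 in BDL (SD, n = 2), a 1.44-fold lower level. The difference was -0.53 (SE 0.28, 95% interval from -1.28 to 0.22, adjusted p = 0.868), and was -0.77 without BDL replicate 1 and -0.29 without BDL replicate 2.

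Cldn4, a neighbour of Cldn3 in the genome and a claudin of chloride passage in the collecting duct, had BDL arrays on both sides of the sham arrays. Probe A_51_P356467 was -2.65 and -2.40 in sham and -2.09 and -2.95 in BDL, and probe A_55_P2183453 was -2.85 and -2.93 in sham and -2.46 and -3.06 in BDL. On both probes BDL replicate 1 was highest and BDL replicate 2 lowest. The differences were 0.0033 (SE 0.35, adjusted p = 0.999) and 0.13 (SE 0.28, adjusted p = 0.948). Without BDL replicate 1 they were -0.43 and -0.17, and without sham replicate 1 the former was -0.12. The probes of Cldn1 and Cldn14 had the same highest and lowest arrays. So did the summed level of the urothelial markers, though not every marker did. Of 10 markers 9 were measured, Upk3b was not well above background, and the sum was 23.3 and 28.7 in sham and 84.7 and 20.0 in BDL. Upk3a, which encodes a uroplakin, ran from 3.82 in BDL replicate 1 to -2.38 in BDL replicate 2.

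Cldn8, the partner of claudin-4 in the collecting duct, was 2.12 and 2.76 in the sham kidneys, against 2.35 and 2.33 in the BDL kidneys. The BDL arrays lay together between the sham arrays, and the difference was -0.10 (SE 0.28, 95% interval from -0.85 to 0.65, adjusted p = 0.960). It was 0.22 without sham replicate 2. Principal cell markers likewise had the sham arrays at both ends, with a summed level of 49.9 and 107 in sham and 65.5 and 67.3 in BDL. Of the 9 markers, 7 were higher and 2 lower in BDL, with a median of 0.035 and 0 past the threshold. Scnn1b, a subunit of the epithelial sodium channel, differed by 0.55 (SE 0.21). Scnn1g, another subunit, which neither sham array measured well above background, was at least 1.29-fold higher in BDL. That bound sets the BDL mean against the lowest signal well above background, or the probe's own where higher. Scnn1g, counted among the 7 higher, entered the fit through the BDL arrays alone, so the filter favoured its direction. Fxyd4, among the 2 lower, differed by -0.81 (SE 0.61) with overlap.

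Relative to the mean of the principal cell list, the distal claudins spread out, with 0.53 for Cldn7, -0.12 for Cldn4 (A_51_P356467), -0.22 for Cldn8 and -0.65 for Cldn3. The log ratio of Cldn7 to Cldn3 within an array was -0.51 and -0.68 in sham and 0.60 and 0.59 in BDL, as deviations from its own mean. This pair, chosen after its values were seen, differed by 1.18 without overlap. The ratios of Cldn7 to Cldn8 (0.75) and of Cldn3 to Cldn4 (-0.53) did not overlap either. In all, 5 of the 7 ratios computed separated the groups, beside 36.7% of all single probes. All 7 pairs were chosen after the values were seen. Each of the 5 holds Cldn10, Cldn7 or Cldn3, whose own groups did not overlap, so the count is no separate result. For the distal convoluted and connecting tubule, 6 of 8 markers were higher in BDL and 0 passed the threshold, with a median of 0.42. Their summed level was 383 and 286 in sham and 302 and 324 in BDL.

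Cldn1, the barrier claudin of Bowman's capsule, was -2.52 and -3.03 in the sham kidneys, against -2.40 and -3.46 in the BDL kidneys. Replicate 1 was above replicate 2 in both groups, and the BDL arrays enclosed the sham arrays. The difference was -0.15 (SE 0.43, 95% interval from -1.29 to 0.98, adjusted p = 0.960), and its sign turned on leaving out sham replicate 1 (0.10) or BDL replicate 2 (0.37). Podocyte markers, from the same corpuscle, were higher in BDL in 7 of 7 by their group means, with a median of 0.47 and 0 past the threshold. Their summed level was 28.6 and 23.0 in sham and 36.1 and 35.1 in BDL, and Cldn1 differed by -0.71 relative to the mean of that list. Wt1, a podocyte transcription factor gene, differed by 0.97 (SE 0.20, adjusted p = 0.775).

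**Figure D3:**
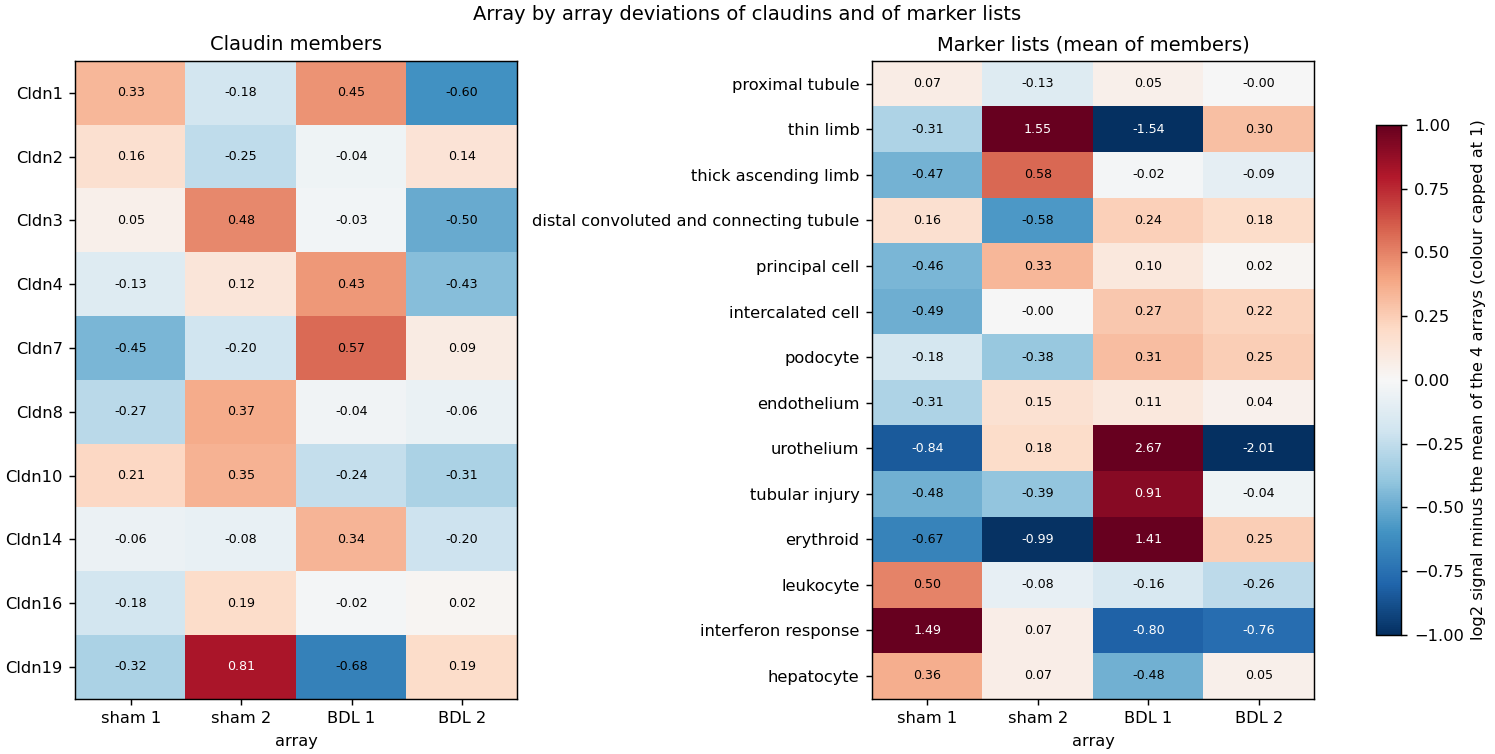
Each cell gives, for 1 array (columns), the log2 signal minus the mean of the 4 arrays, for the 10 claudins by their probe with the highest mean (left) and for marker lists averaged over their measured genes (right), with colour capped at 1. Cldn19 and the thin limb list share the order of the arrays, from 0.81 and 1.55 in sham replicate 2 to -0.68 and -1.54 in BDL replicate 1, and the urothelium list runs from 2.67 in BDL replicate 1 to -2.01 in BDL replicate 2.

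Of the 21 other claudin genes with a probe, 8 stayed in the fit, which asks that both arrays of a group, sham or BDL, be well above background, and 13 did not. None of the 8 passed the threshold. Cldn5, the claudin of endothelium, was 0.58 and 0.90 in sham and 1.36 and 0.90 in BDL (0.39, SE 0.27), with 8 of 9 endothelial markers higher by their group means and a median of 0.18. Their summed level was 42.6 and 54.6 in sham and 54.0 and 51.3 in BDL. Cldn6 differed by 0.34 (SE 0.22) without overlap, Cldn9 by -0.36 (SE 0.32), Cldn12 by 0.09 (SE 0.26), Cldn15 by -0.05 (SE 0.35) and Cldn23 by 0.12 (SE 0.23). Cldn17, above background on 1 of the 2 sham arrays, differed by 0.25 (SE 0.28). Cldn34c1 differed by -1.84 (SE 1.03), and this rested on BDL replicate 2, at -7.59 and not well above background, against -4.01, -4.46 and -4.56 on the other arrays. Among the probes not retained were those of Cldn11, Cldn13, Cldn18, Cldn20, Cldn22 and Cldn24.

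The genes that work with claudins in the junction had 0 members past the threshold in any of the 3 lists. Of the membrane partners, 12 of 13 were measured, 7 higher and 5 lower in BDL, with a median of 0.11. The junctional adhesion molecule gene Jam3 was 2.74 and 2.43 in sham and 3.19 and 3.42 in BDL, a difference of 0.72 (SE 0.23, adjusted p = 0.864). Jam2, of the same family, was -2.53 and -1.60 in sham and -1.10 in each BDL kidney, a difference of 0.96 (SE 0.36, adjusted p = 0.867), and both of its probes had this sign. Ildr2, a gene of the proteins that seal junctions at the corners between cells, differed by 0.48 (SE 0.20). Marveld3, of the occludin family, differed by -0.48 (SE 0.31), and 1 of its 2 probes had this sign. Ocln, the occludin gene, was 0.03 on both sham arrays, and 0.68 and -0.03 in BDL, and 1 of its 2 probes had the sign of this difference (0.30, SE 0.30).

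Of the 22 scaffold genes, 11 were higher and 11 lower in BDL, with a median of 0.01. Tjp1, which encodes ZO-1, the protein that ties claudins to actin, was 0.95 and 1.51 in sham and 1.82 and 1.68 in BDL, a difference of 0.52 (SE 0.27, adjusted p = 0.867). The polarity gene Pard6b differed by 0.56 (SE 0.23), the afadin gene Afdn by 0.55 (SE 0.25) and Magi3 by 0.63 (SE 0.30), each without overlap. Patj, whose protein joins a polarity complex, differed by -0.33 (SE 0.22), and 2 of its 5 probes in the fit had this sign. Groups did not overlap for 7 scaffold genes higher and 6 lower, and for 5 membrane partners higher and 2 lower, beside 18.2% higher and 18.5% lower over all probes.

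**Figure D4:**
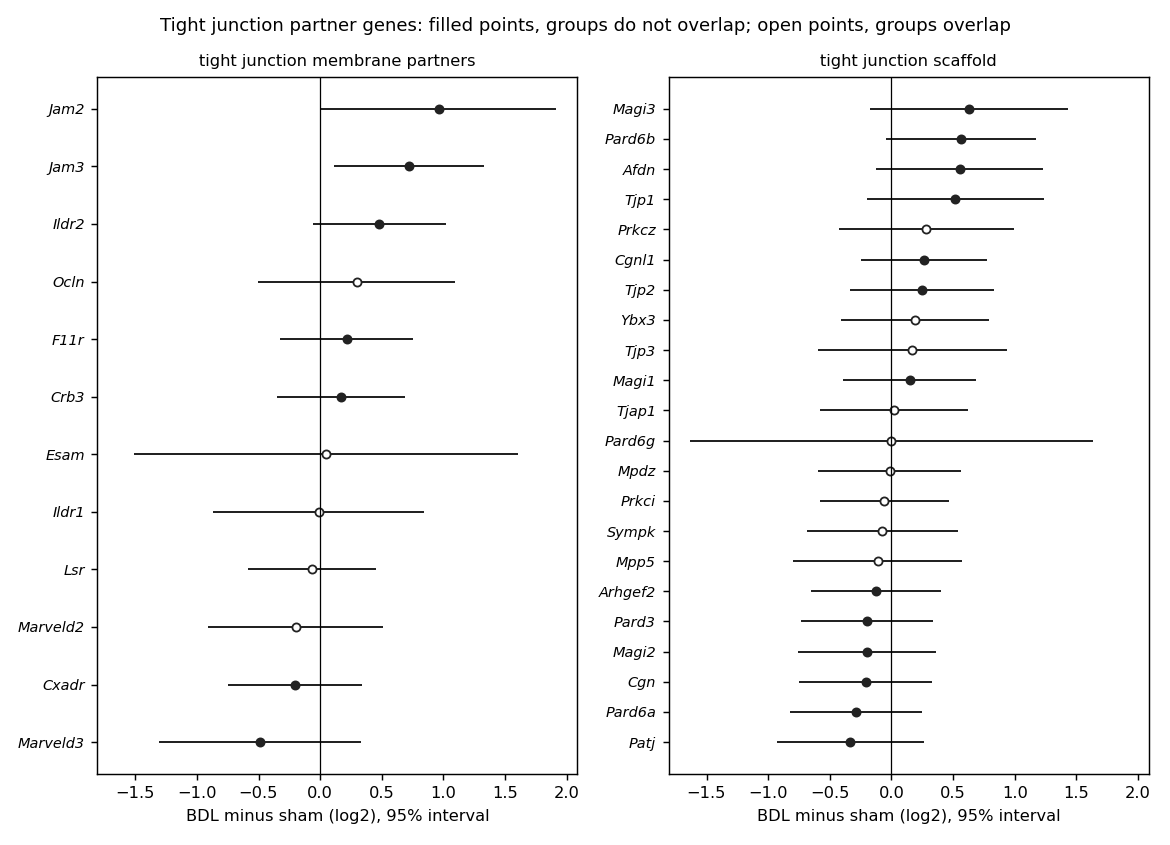
The BDL minus sham difference (horizontal axis, log2) is shown with its 95% interval for 12 membrane partners and 22 scaffold genes, each by its probe with the highest mean. Most intervals include 0, and Jam2, at 0.96, lies furthest to the right.

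Of the genes known to act on claudins, 16 of 17 were measured, 10 higher and 6 lower, with a median of 0.09. Wnk4, a kinase of distal salt handling that phosphorylates claudins, differed by 0.24 (SE 0.27) and Wnk1 by 0.21 (SE 0.22). Trpv4, a calcium channel gene, differed by -0.29 (SE 0.26). Grhl2, a transcription factor gene for epithelial junctions, was -0.71 and 0.84 in sham and -0.0031 and -0.18 in BDL, with the BDL arrays between the sham arrays.

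The genes whose array profile was most like that of Cldn10, the member with the smallest p, were sought over the 19594 named probes in the fit that belong to other genes by the root mean square distance of mean-centred log2 values over the 4 arrays. The nearest were St8sia4, a sialyltransferase gene, at 0.0037, Arrdc4, an arrestin domain gene, at 0.022 and Csad, a gene of taurine synthesis, at 0.028. They differed by -0.56, -0.60 and -0.55. Over these 4 arrays, 101 of the 19594 probes lay within 0.1, so the named genes are not the only near ones. Each member was also given a single marker list as its segment. Cldn10 was given the thick ascending limb, though it also occurs in the proximal tubule. Cldn1 was given podocytes, since no list covered the epithelium of Bowman's capsule. By the same distance, the marker list nearest to a member was that of its own segment for 3 of the 10 members, Cldn2 (proximal tubule, 0.12), Cldn8 (principal cell, 0.13) and Cldn19 (thick ascending limb, 0.38). It was the intercalated cell list for Cldn7, the thick ascending limb for Cldn3, the proximal tubule for Cldn14, the endothelium for Cldn4 and Cldn16, and the leukocyte list for Cldn1 and Cldn10. Tubular injury markers were all 10 higher in BDL by their group means, with a median of 0.67 and 0 past the threshold. They had a summed level of 133 and 107 in sham and 211 and 147 in BDL. Among them Sox9 was well above background on the BDL arrays alone, so the filter favoured its direction. The part of these markers in the claudin values was not tested.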

How the data were processed

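RNA of 4 mouse kidneys was measured on 1-colour arrays, 2 per group. The submitters' processing notes name Agilent Feature Extraction 11.0.1.1. Per the file headers, the deposited processed signal of a spot is a linear intensity, after background subtraction and detrending. The other deposited columns used are control, saturation, outlier and background flags. The value table the authors deposited holds the same intensities divided by 1 constant per array (within 1% for 99.86% to 99.89% of the shared probes). Its column medians were 0.328, 0.339, 0.329 and 0.330 (sham, then BDL), it is linear and not centred, and what set the constant is unknown. It holds 35228 of the probes analysed, with no row for Cldn19.

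The main values are log2 processed signals minus each array's 75th percentile over probes (712 and 849 signal units in sham, 741 and 945 in BDL). Control spots and outlier flags were dropped. Saturated spots numbered 0, and 57.7% to 63.1% of spots were well above background. Accessions, stripped of versions, named 27229 of 55668 probes through a RefSeq table of GRCm38.p6. The array grid lists mm9, so the table served for names and neighbours, and its promoter sequences carry their own build. The 32280 probes that both sham arrays or both BDL arrays measured well above background entered a two-sided limma fit (version 3.58.1, R 4.3.3) by lmFit with eBayes. The operation was the sole term, and p-values were adjusted by Benjamini-Hochberg over every probe fitted. An exact permutation test of 2 against 2 cannot go below p = 0.333 and was not used. A gene with several probes is described by the one with the highest mean. The number of arrays limits the precision.

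The members and lists were chosen with earlier results of these data known. Named are all members, all other measured claudins and up to 4 genes per list with the smallest p. Genes named beyond these (Epcam, Ocln, Grhl2, Patj, Wnk4, Upk3a) were chosen after their values were seen. Not every gene this rule takes is printed, and some genes of the lists are not reported here. A planned comparison of protein sequences was not run. No slide block could be fitted, because the 4 arrays share 1 slide and 1 scan time. Normexp used the median spot signal.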

Additional observations from a re-analysis of the deposited data

How the results depend on the processing

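Across quantile normalization, another percentile, normexp, no filter, a stricter filter, 1 probe per gene, array weights, the authors' deposited table and leaving out each array, limma called 0 probes, members included. With the replicate number as a block it also called 0 (smallest adjusted p = 0.275). The deviations of same-numbered arrays correlated at 0.070, so the numbers were not taken as pairs. The probes at an unadjusted p under 0.05 numbered 1056 without BDL replicate 1 and 3852 without sham replicate 2, against 1823, so these counts rest on single arrays. Cldn10, Cldn3, Cldn7 and the Cldn2 probe A_66_P122511 kept their sign under every alternative run on them (that Cldn2 probe has no value with 1 probe per gene). Their groups did not overlap, so leaving out an array could not turn their sign and is no separate result. The values of Cldn10 lay between -0.62 and -0.49 and those of Cldn7 between 0.41 and 0.90. Cldn16 turned to 0.018 with the percentile over probes above background on all arrays, to 0.044 with normexp and to 0.0080 in the deposited table. Leaving out 1 array gave, from lowest to highest, Cldn16 -0.19 to 0.18, Cldn4 -0.43 to 0.43 (A_51_P356467) and -0.17 to 0.43 (A_55_P2183453), Cldn1 -0.68 to 0.37, Cldn19 -1.06 to 0.072, Cldn8 -0.42 to 0.22, Cldn14 -0.14 to 0.41 and Cldn2 (A_52_P251450) -0.11 to 0.30. The members' median ran from -0.15 to 0.10. Where a group keeps 1 array, it is assumed to vary like the other group. The cause of these shifts was not tested.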
